A study of Mus musculus with 2 samples.

Results

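The 75 histone genes named for the HIST clusters were examined in RNA-seq libraries of 2 patient-derived xenografts, in which a human tumor is passaged in immunodeficient mice. The genes were taken by symbol, as every gene starting with HIST1H, HIST2H, HIST3H or HIST4H, without the 13 symbols that end in PS and a number and mark pseudogenes. They made up 72 of the 57011 labels of the expression table. Of these 72, 69 named 1 gene and 3 named 2 histone genes each, because neighbouring or overlapping genes had been merged into 1 value. The symbols gave 6 linker histone H1 genes, 17 H2A, 22 H2B, 15 H3 and 15 H4 genes. The merged labels were counted once over all HIST genes, and in both types they name.

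Both tumors were of the gastroenteropancreatic neuroendocrine type and grew in athymic nude mice (strain Foxn1nu), which lack mature T cells but keep other host cells. The primary library came from a primary tumor in the flank, and the metastatic library from a metastatic tumor in the peritoneal cavity. Neither had a treatment, and RNA was taken from pellets of the dissociated tumors. Each group held 1 library, so origin of the tumor, site of the graft and differences between single tumors cannot be told apart, and no difference was tested. The sample titles share a code, and nothing else in the labels says whether the xenografts came from 1 patient.

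Histones are the proteins around which DNA is wound. H2A, H2B, H3 and H4 form the core of the nucleosome, and H1 binds the linker DNA between cores. The genes of the HIST clusters encode the replication-dependent histones, made in bulk in S phase, and most of their mRNAs end in a conserved stem-loop in place of a poly(A) tail. Some cluster genes also give polyadenylated mRNAs, which are known from differentiated and non-dividing cells. Replacement variants such as H3.3 and H2A.Z come from genes outside the clusters, have poly(A) tails and are made throughout the cell cycle.

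Values were FPKM, fragment numbers divided by transcript length and by a total. Levels of different genes can thus be set side by side per length. The lowest values came in equal steps in both columns, such as 0.202 FPKM for HIST2H3D in each. Such steps would arise if both libraries shared a divisor, and the deposited ratios would then also carry a difference in depth. This was not checked against counts. The FPKM sums were 784987 for the primary and 885319 for the metastatic library, and the read depth is unknown. Each log2 ratio divides the metastatic by the primary value after adding 1 FPKM to both, so differences of low genes are understated. A gene was called expressed at 1 FPKM or more in at least 1 library. HIST genes are close copies of each other, and how fragments that match several of them were counted is not given in the sources used here, so the values of single genes are uncertain. A listed 0 does not show absence, because LDHA, which nearly every cell uses, was also at 0 in both libraries. Of 12 neuroendocrine markers with a label of their own 7 were expressed. Past 2-fold, 2 were higher and 3 lower, beside 9.22% and 9.35% of all expressed labels. Their median log2 ratio of -0.98 was that of CHGB, on low values of 1.64 and 0.336 FPKM. CHGA was listed at 0 in both libraries, SYP stood at 1.63 and 1.96 FPKM, PCSK1 at 19.9 and 2.74, INSM1 at 3.54 and 0.271, and UCHL1 at 225 and 705. All 7 epithelial markers were expressed. In the metastatic library 6 were higher and 1 lower, beside 51.8% and 47.7% of all expressed labels. Past 2-fold, 2 were higher and 1 lower, beside the same 9.22% and 9.35%. EPCAM stood at 62.5 and 85.5 FPKM, KRT8 at 649 and 1423, and KRT7, the lower one, at 146 and 61.2.

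Most expressed HIST genes had lower values in the metastatic library, and the 4 most abundant differed by about the same factor. The linker histone gene HIST1H1C was the most abundant in both libraries, and its value in the primary was 2.07 times that in the metastatic library. HIST1H2BK, HIST1H2BD and HIST1H2AC followed, with primary values 1.86, 1.72 and 1.76 times the metastatic ones. HIST1H4C, an H4 gene, went the other way and was 7.29 times as high in the metastatic library.

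Of the 72 HIST labels 28 were expressed. Of these, 22 had a lower and 6 a higher value in the metastatic library, whereas 47.7% of all 13811 expressed labels were lower at any size and 51.8% higher. A label passed this filter through 1 library alone in 6 cases and then had to differ. HIST1H1E, HIST1H2AH, HIST1H2BI and HIST1H2BO passed through the primary library, and HIST1H4E and HIST4H4 through the metastatic one. Of the 25 labels with a mean of at least 1 FPKM over both libraries, 19 were lower and 6 higher, with a median log2 ratio of -0.50, whereas 47.3% of all labels with such a mean were lower. Few of these differences were large. Only 3 HIST labels, HIST1H1C, HIST1H2BC and HIST1H2BO, were at least 2-fold lower, beside a background of 9.35% of all expressed labels, and 1, HIST1H4C, was at least 2-fold higher, beside 9.22%. The median log2 ratio over the 28 labels was -0.51, and over all expressed labels 0.03. The middle of the distribution of all labels, from its lower to its upper quartile, ran from -0.46 to 0.51, so the HIST median lay just below the lower quartile. In bulk samples such as these, fewer cells of a type and less RNA per cell cannot be told apart.

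The 8 HIST genes with a mean of at least 10 FPKM over both libraries were all lower in the metastatic library, HIST1H2BJ by almost nothing, and their median was -0.84. Past 2-fold, 2 were lower and 0 higher. Of all 7059 labels with such a mean, 41% were lower at any size, 6.36% were lower and 9.35% higher past 2-fold, and the median was 0.15. The 20 expressed HIST labels with a lower mean had a median of -0.44, with 14 lower and 6 higher. Summed over all HIST labels, FPKM came to 766 in the primary against 434 in the metastatic library, or 0.0976% and 0.0490% of all FPKM. HIST1H1C alone made up 41.1% and 35.0% of the HIST sums. Together with HIST1H2BK and HIST1H2BD it made up 69.9% and 63.5%.

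**Figure D1:**
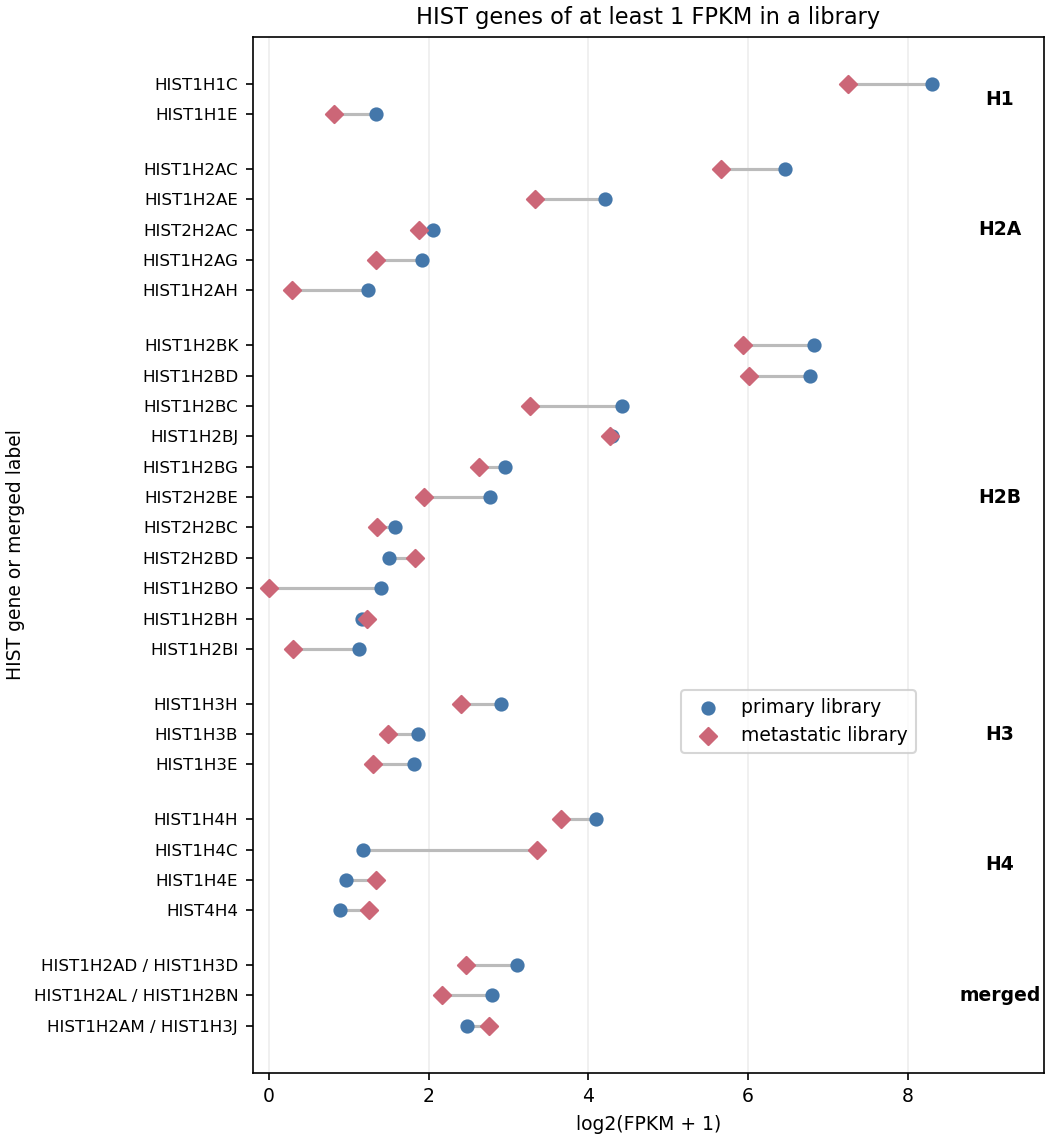
Level of each of the 28 expressed HIST labels in the primary (circle) and metastatic (diamond) library, as log2(FPKM + 1), ordered by histone type and by the value in the primary; merged labels stand last. The diamond lies left of the circle for 22 labels, and HIST1H4C shows the widest gap to the right.

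Linker histones came from 1 gene almost alone. HIST1H1C, which encodes the H1.2 subtype, stood at 315 FPKM in the primary against 152 in the metastatic library, a log2 ratio of -1.05. Among all labels it ranked 311th in the primary library and 930th in the metastatic one. HIST1H1E, the gene of H1.4, was far lower, at 1.53 and 0.764 FPKM, a whole-number ratio of 2 to 1. It passed the filter through the primary library alone, so nothing is read from that ratio. The remaining H1 genes were under 1 FPKM. HIST1H1D stood at 0.273 and 0.182 FPKM, HIST1H1B at 0.0880 and 0.440, and HIST1H1A was listed at 0 in both. HIST1H1T, known as a testis gene, was also listed at 0. The H1 sum was 317 and 153 FPKM, a ratio of 0.484 metastatic over primary, and without HIST1H1C the ratio of the remaining 1.89 and 1.39 FPKM was 0.734.

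Expressed H2A labels were lower in the metastatic library in 7 of 8 cases, with 0 of them past 2-fold and a median of -0.63. Of all expressed labels 47.7% were lower at any size and 9.35% past 2-fold. HIST1H2AC led at 87.3 and 49.7 FPKM, a log2 ratio of -0.80. HIST1H2AE stood at 17.5 and 9.07 FPKM, a log2 ratio of -0.87. The gap between HIST1H2AC and HIST1H2AE within a library was thus larger than the gap of either gene between the libraries. HIST1H2AH had the most negative log2 ratio of the type, -0.95, on low values of 1.37 and 0.228 FPKM. It passed the filter through the primary library alone and so had to be lower in the metastatic one. HIST1H2AG stood at 2.78 and 1.54 FPKM and HIST2H2AC at 3.14 and 2.69. HIST2H2AA3 and HIST2H2AA4, a duplicated pair in the HIST2 cluster, were listed at 0 in both libraries. The H2A sum was 132 and 79.7 FPKM.

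H2B was the type with most expressed genes and, of the core histones, the highest sum, at 290 FPKM in the primary against 170 in the metastatic library. Of 12 expressed labels 10 were lower and 2 higher, with 2 at least 2-fold lower, and the median was -0.69. Of all expressed labels 47.7% were lower at any size and 9.35% past 2-fold. HIST1H2BI and HIST1H2BO passed the filter through the primary library alone and so had to be lower in the metastatic one. HIST1H2BO was 1 of the 2 past 2-fold. HIST1H2BK stood at 112 and 60.3 FPKM and HIST1H2BD at 109 and 63.4, log2 ratios of -0.88 and -0.77. The order of these 2 genes by FPKM changed between the libraries, and with 1 library each it cannot be called a difference. HIST1H2BC, which lies head to head with HIST1H2AC, stood at 20.4 and 8.63 FPKM, a log2 ratio of -1.15. HIST1H2BJ, at a similar primary level, was nearly equal in both, at 18.6 and 18.4 FPKM. HIST1H2BG stood at 6.74 and 5.19 FPKM.

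HIST2H2BE, the most abundant HIST2 gene in both libraries, stood at 5.82 and 2.83 FPKM, a log2 ratio of -0.83. The low H2B genes spread most. HIST1H2BO stood at 1.65 FPKM in the primary and was listed at 0 in the metastatic library, so its log2 ratio of -1.41 rests on the pseudocount and no fold is given. HIST1H2BI stood at 1.18 and 0.236 FPKM. HIST1H2BH, at 1.25 and 1.34, and HIST2H2BD, at 1.84 and 2.57, were the 2 higher in the metastatic library; HIST1H2BH was lower there once the libraries were scaled to the same sum. HIST2H2BD and HIST2H2BC, at 1.99 and 1.55 FPKM, are named as pseudogenes in the human nomenclature, although the symbol rule took them.

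H3 genes of the clusters were low. HIST1H3H was the highest of those with a label of their own, at 6.52 and 4.32 FPKM, a log2 ratio of -0.50. HIST1H3B stood at 2.64 and 1.80 FPKM and HIST1H3E at 2.52 and 1.48. Of 5 expressed H3 labels, 4 were lower in the metastatic library and 0 past 2-fold, beside 47.7% and 9.35% of all expressed labels. The H3 median was -0.50. HIST2H3A and HIST2H3C, another duplicated pair, were listed at 0 in both libraries, as was HIST3H3, known from testis. The H3 sum was 25.1 and 19.3 FPKM, a ratio of 0.770.

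The H4 genes went both ways. The metastatic value was the higher one for 3 of 4 expressed genes, beside 51.8% of all expressed labels. The median log2 ratio of the H4 genes was 0.37. HIST1H4E and HIST4H4, the middle 2 that set this median, passed the filter only through the metastatic library, where they were high. HIST1H4C stood at 1.27 FPKM in the primary against 9.24 in the metastatic library, a log2 ratio of 2.17. HIST1H4E stood at 0.951 and 1.54 FPKM, and HIST4H4, the lone gene of its cluster, at 0.852 and 1.39. HIST1H4H, the most abundant H4 gene, was lower, at 16.2 and 11.6 FPKM, a log2 ratio of -0.45. The H4 sum was 20.5 and 25.4 FPKM, a ratio of 1.24 metastatic over primary. It was 3.17 without HIST1H4H and 0.842 without HIST1H4C, so the direction of the H4 sum turned on HIST1H4C alone. The ratio of the HIST1H4C values equals 51 to 7 within 0.001%. It would do so if 7 fragments stood behind the primary value and both libraries shared a divisor. Counts are not given, so this was not checked against them.

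The 3 merged labels cannot be split between their genes. The label of HIST1H2AD and HIST1H3D, which also holds the clone name AL031777.3, stood at 7.58 and 4.52 FPKM, a log2 ratio of -0.64. That of HIST1H2AL and HIST1H2BN stood at 5.91 and 3.50 FPKM, a log2 ratio of -0.62. That of HIST1H2AM and HIST1H3J was higher in the metastatic library, at 4.59 and 5.73 FPKM, a log2 ratio of 0.27. It gave the single higher case among both the H2A and the H3 labels.

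**Figure D2:**
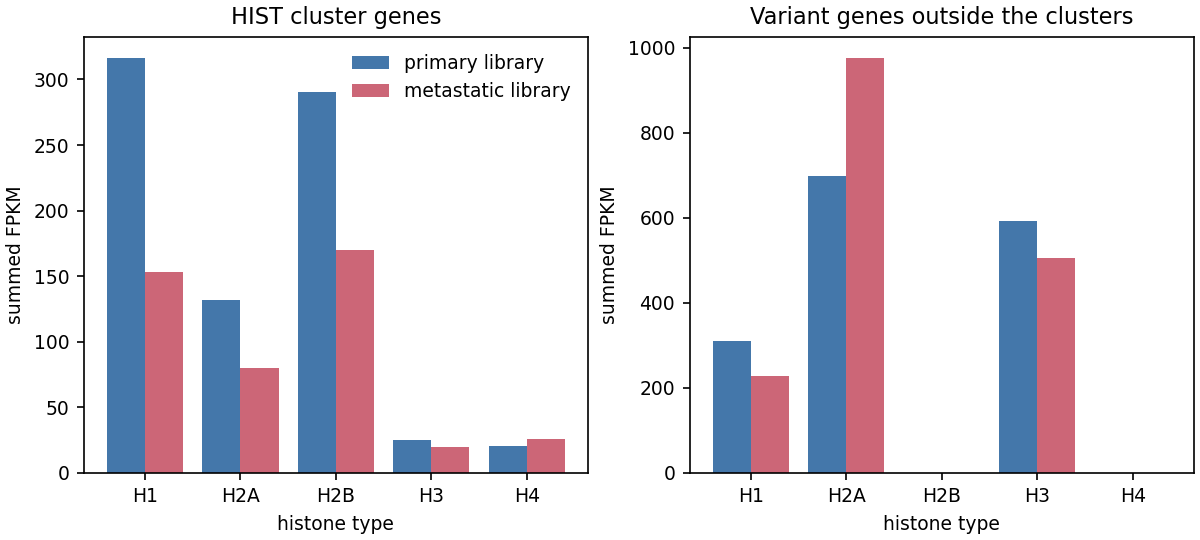
Summed FPKM of each histone type in the primary and metastatic library, for HIST cluster genes (left) and for variant genes outside the clusters (right, on another scale; the list holds no H4 variant). Among HIST genes H1, H2A, H2B and H3 are lower in the metastatic library and H4 is higher, which turns to lower without HIST1H4C; H2B variants sum to less than 1 FPKM.

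The core types were far from equal per length, although nucleosomes hold them in equal number. In the primary library H2B made up 37.9% of the HIST sum and H2A 17.2%, against 3.27% for H3 and 2.68% for H4. In the metastatic library the shares were 39.2%, 18.4%, 4.46% and 5.87%. The order of H3 and H4 thus turned between the libraries. This turn rests on HIST1H4C, whose 9.24 FPKM in the metastatic library exceeds the difference between the 2 sums there. It also rests on the merged label of HIST1H2AD and HIST1H3D, which was counted in full as H3. Without that label the H3 sum was 17.5 and 14.8 FPKM, below the H4 sum of 20.5 and 25.4 in both libraries. The merged label of HIST1H2AM and HIST1H3J, at 4.59 and 5.73 FPKM, was also counted in full as H3. Leaving out that label instead would also put H3 below H4 in both libraries, in the primary by very little.

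Most of the HIST sum came from genes with a record of polyadenylated transcripts, which the symbol rule did not use. A list of 6 such genes, HIST1H1C, HIST1H2AC, HIST1H2BC, HIST1H2BD, HIST1H2BK and HIST2H2BE, held 84.7% of the HIST sum in the primary library and 77.6% in the metastatic one. All 6 were lower in the metastatic library, 2 of them at least 2-fold, with log2 ratios from -1.15 to -0.77 and a median of -0.86. Among all expressed labels 47.7% were lower at any size and 9.35% past 2-fold. Their sum was 649 and 337 FPKM, a ratio of 0.519. HIST1H2AE, HIST1H2BJ and HIST1H4H, also with a mean of at least 10 FPKM, are not on it. The 66 other labels summed to 117 and 97.0 FPKM, a ratio of 0.828, and the 22 expressed among them had a median of -0.41, with 16 lower and 6 higher. The list was drawn from textbook knowledge with results of these libraries known, so it is no independent support.

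By cluster, HIST1 held 98.0% and 97.2% of the sums. Its 23 expressed labels had a median of -0.57, with 19 lower and 4 higher. The 4 expressed HIST2 labels had a median of -0.20, with 3 lower. Of all expressed labels 47.7% were lower and 51.8% higher. The 4 HIST3 genes were listed at 0 in both libraries, and each of these labels stood on 2 rows of the table.

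Below 1 FPKM in both libraries stood 44 HIST genes. Of these, 18 were listed at 0 in both, 10 in 1 library, and 16 were above 0 in both. Their values came in steps. HIST1H3A in the primary, HIST1H3I in the metastatic library and HIST2H3D in both stood at the same 0.202 FPKM, and HIST1H3F stood at 2 times that, 0.404 FPKM, in the metastatic library. Among H2B genes 0.236 FPKM recurred in HIST1H2BB, HIST1H2BI and HIST2H2BA, with HIST1H2BM at 2 times and the primary values of HIST1H2BI and HIST1H2BO at 5 and 7 times that value. Of the 16 genes, 12 had values whose ratio matched that of whole numbers up to 9 within 0.01%, such as 5 to 1 for HIST1H1B, 4 to 1 for HIST1H2AB and 1 to 4 for HIST1H2BL. Single fragments would give such steps if both libraries shared a divisor. No difference is read from these genes, whose sums were 8.60 and 8.30 FPKM.

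**Figure D3:**
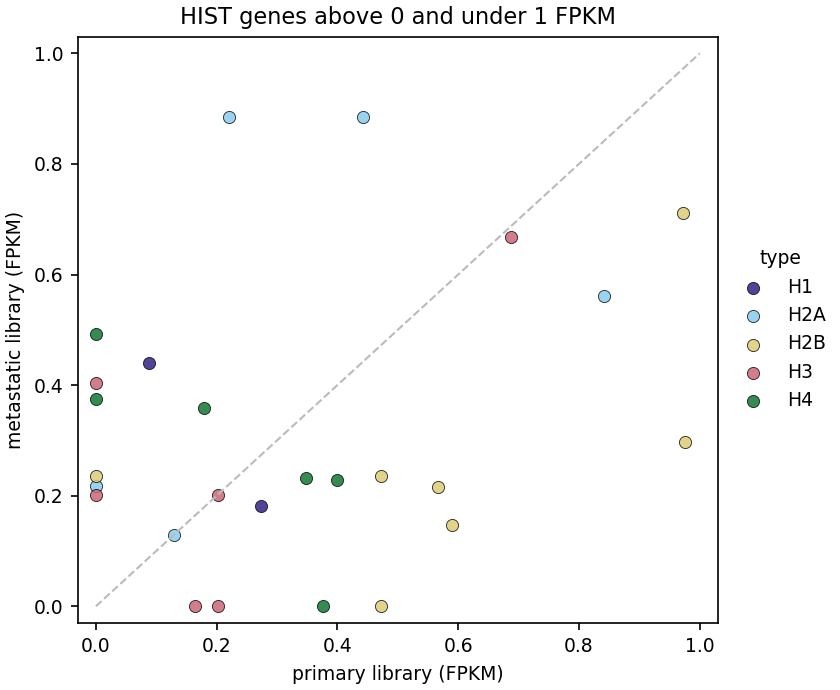
The 26 HIST genes above 0 in a library and under 1 FPKM in both, with the primary library on the horizontal and the metastatic library on the vertical axis, in FPKM, coloured by histone type; the dashed line marks equal values. Points fall on both sides of the line, and 10 genes lie on an axis because 1 library lists them at 0.

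Variant genes outside the clusters stood well above most HIST genes. Of 16 such genes with a label of their own, 10 were expressed, with 1 higher and 1 lower past 2-fold, near the shares of 9.22% and 9.35% among all expressed labels, and a median log2 ratio of -0.10. Those of H3.3, H3F3B at 549 and 460 FPKM and H3F3A at 43.0 and 45.4, exceeded all cluster H3 genes together, which made up 4.06% and 3.68% of all H3 FPKM. H2AFZ, which encodes H2A.Z, stood at 220 and 510 FPKM, a log2 ratio of 1.21. H2AFX, the gene of the variant phosphorylated at DNA breaks, stood at 38.9 and 51.3 FPKM. H2AFY2, a macroH2A gene, stood at 22.4 and 3.44 FPKM, a log2 ratio of -2.40. Cluster genes gave 15.9% of H2A FPKM in the primary library and 7.54% in the metastatic one.

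Both expressed linker variants were lower in the metastatic library, as the cluster gene HIST1H1C was. H1F0, the H1.0 gene known from cells that have stopped dividing, stood at 128 and 73.9 FPKM, a log2 ratio of -0.78, and H1FX at 182 and 154, a log2 ratio of -0.25. Cluster genes gave 50.5% and 40.2% of H1 FPKM. For H2B they gave 99.9% and 99.7%, since the H2B genes outside the clusters were nearly silent. CENPA, the H3 variant of centromeres, was only given in a label merged with SLC35F6, at 28.1 and 27.3 FPKM.

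Genes that act on histone mRNA, in its transcription, processing or decay, were more often higher than lower in the metastatic library. Of 26 expressed, 18 had a higher and 8 a lower value there, with 4 higher and 1 lower past 2-fold and a median of 0.66, beside 51.8% higher at any size, and 9.22% higher and 9.35% lower past 2-fold, among all expressed labels. SLBP, the protein that binds the stem-loop, stood at 22.7 and 36.7 FPKM. LSM10, a subunit of the U7 particle that guides cleavage of histone pre-mRNA, stood at 22.8 and 73.0 FPKM, a log2 ratio of 1.64, while its partner LSM11 stood at 2.71 and 1.78. NPAT, the coactivator of the HIST clusters, stood at 8.89 and 6.79 FPKM, and CASP8AP2, which works with it, was listed at 0 in both. LSM1, of the decay machinery, stood at 42.6 and 93.7 FPKM, E2F1 at 4.59 and 11.7, and the cleavage factor CSTF2T at 5.65 and 1.83.

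Histone chaperones, which carry histones to and from DNA, had a median of 0.20 over 23 expressed genes, with 16 higher and 7 lower. Of all expressed labels 51.8% were higher at any size. The median of all labels with a mean of at least 10 FPKM was 0.15, near that of the chaperones. Past 2-fold, 0 chaperones were higher and 1 was lower, beside 9.22% and 9.35% of all expressed labels. That 1 was ATRX, at 39.8 and 19.4 FPKM, which deposits H3.3. DNAJC9 stood at 15.5 and 30.9 FPKM and HJURP, the chaperone of CENPA, at 89.4 and 48.8. S phase genes had a median of 0.43 over 39 expressed genes, with 33 higher and 6 lower, beside the same 51.8% higher. Past 2-fold, 5 were higher and 0 lower, beside 9.22% and 9.35% of all expressed labels, so nothing is read from the count of 5. The polymerase clamp PCNA stood at 80.7 and 168 FPKM, the phosphatase CDC25A at 5.41 and 22.3, MCM3 at 20.7 and 51.6, CCNE2 at 1.501 and 4.83 and CDC45 at 15.8 and 37.5. MKI67, which marks cycling cells, had values of 24.5 and 18.2 FPKM. MCM2 and SLBP belong to more than 1 of these lists.

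**Figure D4:**
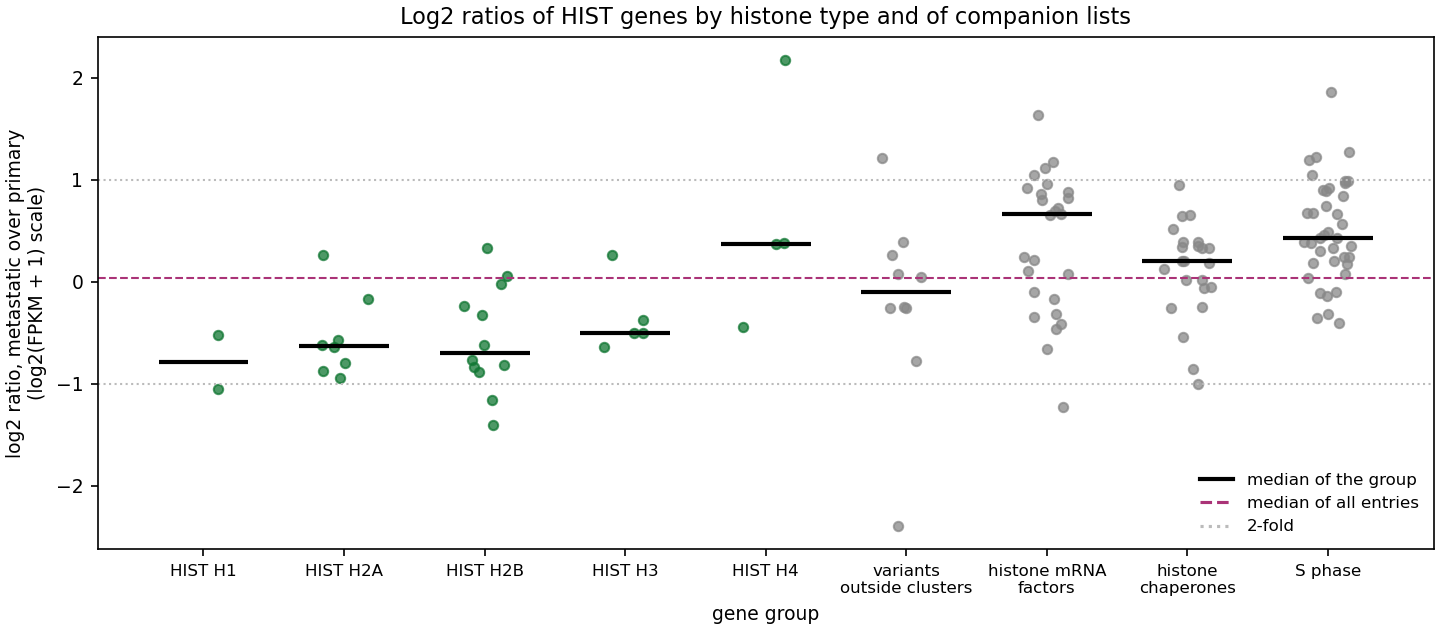
Log2 ratios (metastatic over primary, 1 FPKM added to both) of the expressed HIST labels by histone type (green) and of the expressed genes of 4 companion lists (grey); each point is 1 label, black bars are medians, the dashed line is the median of all expressed labels and dotted lines mark 2-fold. Medians of HIST H1, H2A, H2B and H3 lie between -0.78 and -0.50, and those of HIST H4, histone mRNA, chaperone and S phase genes lie above the dashed line. The H1 median is that of 2 labels, HIST1H1C and HIST1H1E, and HIST1H1E passed the filter through the primary library alone. The H4 median is set by HIST1H4E and HIST4H4, which passed it through the metastatic library alone.

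Since most cluster mRNAs lack a poly(A) tail, the capture of such RNAs bears on their level. The labels do not say whether libraries were selected for poly(A) or depleted of ribosomal RNA. Of 21 other RNAs without a poly(A) tail that had a label of their own, 7 were expressed and 11 were listed at 0 in both libraries. Past 2-fold, 2 were higher and 2 lower, beside 9.22% and 9.35% of all expressed labels. RN7SL1 stood at 372 and 319 FPKM, SNORA73B at 101 and 78.1, and RMRP at 9.51 and 22.9. RNU5A-1 was listed at 0 in the primary and stood at 40.8 FPKM in the metastatic library, while RNU4-2, at 9.92, and RNU6ATAC, at 7.50, were listed at 0 in the metastatic library. The size of the log2 ratios of RNU5A-1, RNU4-2 and RNU6ATAC thus rests on the pseudocount. The expressed RNAs of this list had no common direction, and their part in the HIST values was not tested.

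Some markers of other cells differed as well. Fibroblast markers, of which 7 of 9 were expressed, summed to 557 and 180 FPKM. Past 2-fold, 4 were lower and 1 higher, beside 9.35% and 9.22% of all expressed labels. Most of both sums came from COL1A2, at 474 and 149 FPKM. DCN was the higher one, at 0.370 and 2.89 FPKM, and LUM and THY1 were under 0.1 FPKM in both libraries. Endothelial markers, of which 3 of 9 were expressed, summed to 27.1 and 4.92 FPKM, with KDR at 0 in both libraries. The gap between these sums came mostly from EGFL7 (19.1 and 1.58 FPKM) and CLDN5 (5.73 and 1.41). The 6 markers under 1 FPKM in both libraries, KDR among them, had no common direction. The metastatic value was the lower one for PECAM1 and CDH5, but the higher one for VWF, TEK and ERG. Leukocyte markers, of which 2 of 9 were expressed, summed to 6.22 and 14.0 FPKM. That order came from LYZ, at 2.72 and 12.0 FPKM, and the sums without it were 3.50 and 2.04. The other expressed one, CSF1R, stood at 1.06 and 0.243 FPKM. CD3E was at 0 in both libraries and PTPRC at 0.111 and 0.0403 FPKM. The part of host or stromal cells in the HIST values was not tested.

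The HIST median was below 0 under all 4 scalings, and calls moved under the 2 that equalise sums. Scaling by the median ratio or by the 75th percentile left 1 higher and 3 lower, with the same names. With both libraries brought to a sum of 1000000, the median of all expressed labels shifted from 0.03 to -0.13, and the HIST median from -0.51 to -0.66. The HIST median minus that of all labels was thus -0.55 as deposited and -0.53 after rescaling. The split of HIST calls went from 1 higher and 3 lower to 1 higher and 7 lower, with HIST1H2AE, HIST1H2AH, HIST1H2BK and HIST2H2BE added, beside 7.17% of all labels higher and 12.6% lower. Without short, non-polyadenylated and mitochondrial genes in the sum it was 1 higher and 8 lower, beside 7.32% and 12.7%. The 4 abundant genes HIST1H1C, HIST1H2BK, HIST1H2BD and HIST1H2AC were lower, and HIST1H4C higher, under all 4 scalings tried.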

How the data were processed

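RNA-seq values of 2 libraries, 1 per group, were analysed. Both columns of the deposited table, of 62573 rows, hold FPKM computed by the authors. Cufflinks 2.2.1, STAR 2.7.6a, bcl2fastq 2.18.0.12 and the human build GRCh38 are named, per the submitters' processing notes, without role or order. Not given in the sources used here are the annotation, library selection, and treatment of mouse reads and of fragments matching several genes. Depth is unknown, so no counting interval is given.

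Rows with the same label were summed. Log2 ratios used a pseudocount of 1 FPKM, a filter of 1 FPKM in at least 1 library and a 2-fold threshold, without a test. Companion genes in labels shared with other genes were left out, except where the other names were clones, short or antisense RNAs. Human sequences and coordinates were not used here.

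Members and lists were chosen with earlier results of these data known. Named HIST genes were all of at least 10 FPKM, the most abundant and the furthest higher and lower of each type, and the merged labels; other HIST genes were chosen after their values were seen. Companion genes were the 4 furthest from 0 per list and a fixed set; LSM11, RN7SL1, SNORA73B and the markers were chosen after their values were seen. Python 3.11.15, pandas 2.3.3, numpy 2.4.6 and matplotlib 3.10.9 were used. The alternatives were pseudocounts of 0.1 and 0.5, other filters, a 4-fold threshold, 4 scalings, merged labels left out and the highest row of a label. Removal of pseudogenes, a filter of 10 FPKM, means over both libraries, and removal of HIST1H4C, LYZ or the most abundant gene of a type were added after seeing the data.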

Additional observations from a re-analysis of the deposited data

How the results depend on the processing

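No paired analysis was possible because each group held 1 library. Of 188 recomputed values that answer a comparison, 171 kept their direction and their side of the 2-fold limit or, for counts, stayed within 1.5 times. The number of HIST genes at least 2-fold lower, 3 as reported, was 6 and 5 with pseudocounts of 0.1 and 0.5 FPKM, 7 after scaling to a sum of 1000000, 8 when mitochondrial, short and non-polyadenylated genes were left out of that sum, and 0 at a 4-fold threshold. The smaller pseudocounts add genes of low values. The number at least 2-fold higher, 1 as reported, was 0 with a filter of 10 FPKM, which leaves HIST1H4C out. The median of H1 was -1.05 with a filter of 5 FPKM, which leaves HIST1H1C alone. Without the most abundant gene of the type, the summed ratio was 0.734 for H1 and 3.17 for H4, and without HIST1H4C it was 0.842 for H4, a reversed direction. The median of the HIST genes known for polyadenylated transcripts was -1.03 after either scaling to a sum. Without a filter the HIST median was -0.01 and those of H2A, H3, H4, variants outside the clusters and other RNAs without a poly(A) tail were 0, since many members are at or near 0. Under the other settings the HIST median ran from -0.84 to -0.50. With 1 library per group and unknown depth, no difference here is separated from the spread between tumors or from counting error, and genes under 1 FPKM rest on few fragments.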
